A study of Homo sapiens with 12 samples.

Results

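The integrin and laminin subunit genes were followed across all libraries of a study of LM3 cells, which derive from MDA-MB-231, a human breast cancer line of the triple-negative kind, and are labelled as lung metastatic. The family was chosen with earlier results of these data known. Its members were then taken by symbol: every integrin alpha, integrin beta and laminin chain gene in the deposited count table. This gave 38 of 57730 genes, made of 18 alpha subunits, 8 beta subunits and 12 laminin chains. The 12 libraries formed 4 groups of 3. They were cells with a hairpin against ACSL5 treated with palmitic acid (shACSL5+PA), cells with a control hairpin treated with palmitic acid (shControl+PA), and the same pair of cells without it (shACSL5 and shControl). All groups thus carried a hairpin and derived from the same line. ACSL5 encodes an enzyme that joins long-chain fatty acids to coenzyme A. The labels name no hairpin sequence, no clone, and no dose, duration or vehicle of palmitic acid, so effects of a vehicle and of palmitic acid cannot be told apart, nor can loss of ACSL5 and other effects of its hairpin. The labels do not tell whether the 3 libraries of a group were grown separately, so the p-values cover only the scatter among these libraries, which may be technical.

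Integrins are cell surface receptors built from an alpha and a beta subunit, and the pair decides which matrix protein is bound. Laminins are secreted trimers of an alpha, a beta and a gamma chain that form the backbone of basement membranes, the thin matrix sheets that carcinoma cells attach to and cross. Cells of the MDA-MB-231 line are known to adhere to laminin and collagen through receptors that share the beta subunit encoded by ITGB1.

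Library totals ran from 18875565 to 20623983 counts in shACSL5+PA, 18014888 to 18614091 in shControl+PA, 16788694 to 21814751 in shACSL5 and 17119570 to 18680316 in shControl. Levels are given as CPM, counts scaled to a common library size with TMM factors, and n is 3 libraries a group throughout. The targeted gene followed the labels: ACSL5 stood at 13.3 to 17.6 CPM in shACSL5+PA against 189 to 194 CPM in shControl+PA, and at 10.3 to 12.5 CPM in shACSL5 against 141 to 145 CPM in shControl. The exact 2-sided permutation test gave p = 0.1 in each pair, the smallest that 3 against 3 libraries can give. All 6 markers fixed for the line (VIM, CD44, AXL, CAV1, ANXA1 and MSN) were expressed. Their summed level was lower with the knockdown, at 5974 to 6227 CPM in shACSL5+PA against 7439 to 7673 CPM in shControl+PA, and 6115 to 6253 CPM in shACSL5 against 8032 to 8271 CPM in shControl. Without palmitic acid VIM, MSN and ANXA1 carried that difference. CD44 averaged 374 CPM in both shACSL5 and shControl, CAV1 526 in shACSL5 and 528 in shControl, and AXL 702 in shACSL5 and 674 in shControl. Under palmitic acid CD44 averaged 325 CPM in shACSL5+PA and 366 in shControl+PA, CAV1 372.5 and 418.5, and AXL 695 and 592. None of 9 leukocyte markers passed the low-count filter, their sum was at most 0.962 CPM in any library, and CD3E, CD2 and TYROBP had 0 counts in every library. Of 5 platelet markers 1 passed, with a sum of at most 1.57 CPM, and GP9, PF4 and PPBP were at 0. Summed endothelial markers (6 genes, 3 of which passed) ran from 34.2 to 36.0 CPM in shACSL5+PA, 43.6 to 47.3 CPM in shControl+PA, 39.2 to 46.0 CPM in shACSL5 and 58.5 to 60.6 CPM in shControl. Most of that sum was ESAM, at a mean of 40.8 CPM in shACSL5 and 55.0 in shControl. Summed luminal breast markers (8 genes, 6 of which passed) ran from 211 to 225 CPM in shACSL5+PA, 255 to 263 CPM in shControl+PA, 215 to 226 CPM in shACSL5 and 239 to 248 CPM in shControl. Luminal genes went both ways without palmitic acid. KRT19 averaged 28.3 CPM in shACSL5 and 57.4 in shControl, and AGR2 4.63 and 17.4. XBP1 averaged 168.5 and 152, GATA3 8.01 and 6.79, and EPCAM 4.21 and 2.22. Summed fibroblast markers (6 genes, 1 of which passed, with COL1A2 at 0) were higher with the knockdown, at 10.75 to 11.0 CPM in shACSL5+PA against 7.96 to 10.74 CPM in shControl+PA, and 12.7 to 15.6 CPM in shACSL5 against 11.3 to 12.4 CPM in shControl. With palmitic acid the groups thus all but touched. Nearly all of that sum was COL1A1, at a mean of 13.5 CPM in shACSL5 and 11.5 in shControl, and 10.7 in shACSL5+PA and 9.18 in shControl+PA. The other 5 averaged under 1 CPM in every group. Whether these shifts of the line, endothelial, luminal and fibroblast markers have a part in the integrin and laminin results was not tested. In bulk RNA, fewer cells that express a gene and less RNA of it per cell cannot be told apart.

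Of the 38 genes, 23 passed the low-count filter and were tested: 8 alpha subunits, 6 beta subunits and 9 laminin chains. To compare levels between genes, CPM was divided by the summed exon length of the gene in kilobases (RPKM). ITGB1, the beta subunit shared by the collagen, fibronectin and most laminin receptors, had the highest level per length in all 4 groups, at 186 ± 6.53 RPKM in shACSL5+PA, 215 ± 0.518 in shControl+PA, 165 ± 5.15 in shACSL5 and 210 ± 4.62 in shControl (SD). It made up 89.1% to 90.5% of the summed beta subunit level in shACSL5+PA, 87.2% to 87.9% in shControl+PA, 87.5% to 89.2% in shACSL5 and 82.6% to 83.2% in shControl. LAMB3, a beta chain of the laminin of epithelial attachment sites, ranked next in all 4 groups, at 80.4 ± 5.37, 159 ± 2.79, 75.5 ± 2.59 and 139 ± 2.84 RPKM. In shControl, ITGA3 (74.0 ± 2.38 RPKM), LAMB2 (64.2 ± 1.05), ITGA2 (51.9 ± 2.31) and ITGA6 (45.9 ± 1.30) came after these, each apart from its neighbour in the order. The ranges of 7 of the 22 neighbouring pairs overlapped there, among them LAMC1 (28.3 to 29.8) and LAMA5 (28.4 to 29.6), and likewise ITGB5 (18.6 to 20.5), ITGB4 (17.6 to 19.8) and ITGAV (17.5 to 19.0). In shACSL5 the order was different: ITGA3 ranked seventh, at 18.7 ± 0.140 RPKM, below ITGA2 (37.8 ± 2.76) and ITGA6 (21.5 ± 0.831). That place rests on the length used: over the longest transcript ITGA3 stood at 33.4 ± 0.251 RPKM in shACSL5, above ITGA6 at 24.99 ± 0.966, and at 132 ± 4.27 in shControl.

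**Figure D1:**
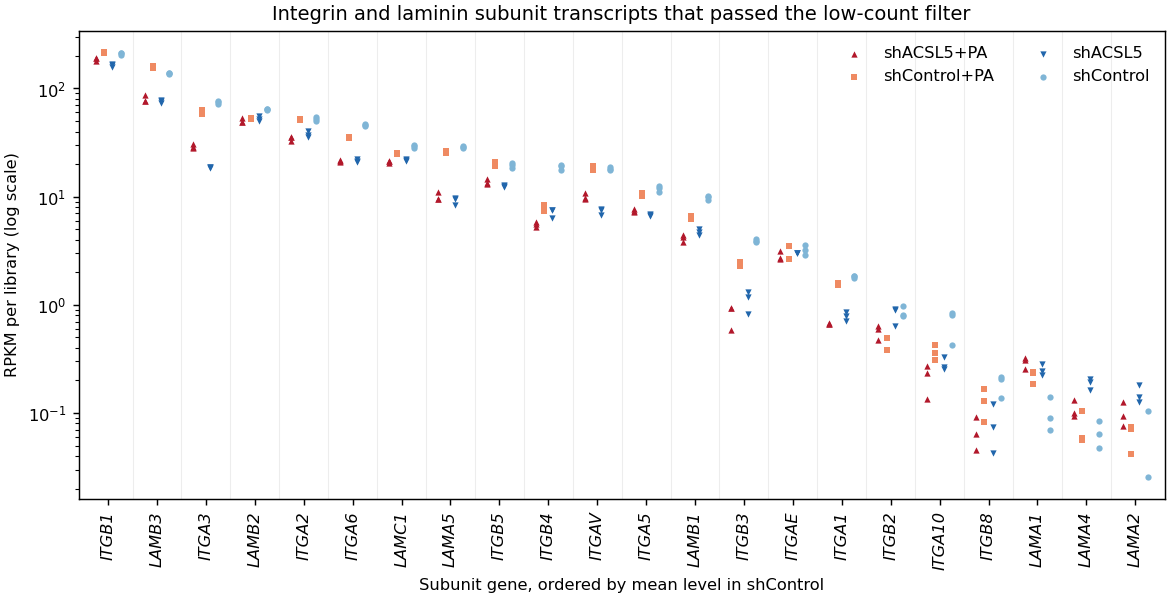
RPKM (log scale) of integrin and laminin subunit genes that passed the low-count filter, 1 point per library, ordered by mean level in shControl. ITGB1 and LAMB3 are the highest in all 4 groups, and the 2 knockdown groups lie below the 2 control groups for most genes left of ITGAE (a library at 0 is not drawn on the log axis, which concerns LAMA2 in shControl replicate 2).

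The other 15 genes did not pass the filter and had at most 13 counts in any library. These were ITGA4, ITGA7, ITGA8, ITGA9, ITGA11, ITGA2B, ITGAD, ITGAL, ITGAM, ITGAX, ITGB6, ITGB7, LAMA3, LAMB4 and LAMC3. They include the leukocyte alpha subunits ITGAL, ITGAM and ITGAX and the platelet subunit ITGA2B. ITGAD had 0 counts in all 12 libraries, which allows a level of up to 0.0133 CPM over the 225922162 counts of the series (3 counts, counting error only). LAMA3 encodes the alpha chain that joins the product of LAMB3 in a trimer. It had 3 to 4 counts in shACSL5+PA libraries, 4 to 11 in shControl+PA, 2 to 6 in shACSL5 and 3 to 10 in shControl, while LAMB3 had 5763 to 13816 counts in the same 12 libraries.

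Without palmitic acid, most integrin and laminin genes were lower in knockdown cells. The 38 genes together took 0.300% ± 0.00137 of all counts in shACSL5 and 0.525% ± 0.00350 in shControl (SD, n = 3), with no overlap between the groups. Of the 23 tested genes 18 fell and 3 rose. Over all 14706 genes tested, 32.6% were called lower and 29.7% higher (edgeR's quasi-likelihood test, adjusted p under 0.05). The median log2 change of the 23 was -0.88, against -0.02 over all genes. The family was chosen with earlier results known, so these shares are not an unselected contrast with all genes. Changes of at least 2-fold downward were called in 11 of the 23, where 6.53% of all genes were. All 3 that rose were laminin alpha chains of low level. Among genes with a mean of at least 5 CPM, 16 of 17 fell and 0 rose, and 37.3% and 35.1% of all 10938 such genes did so. The libraries did not overlap for any of the 18 that fell, a pattern seen in 34.5% of all genes, nor for the 3 that rose (31.6% of all genes).

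Receptors for laminin held the largest fall. ITGA3 (ENSG00000005884, GRCh38 chromosome 17, 50055968 to 50090481, plus strand), the alpha subunit of the main laminin receptor with ITGB1, stood at 184, 181 and 184 CPM in shACSL5 against 701, 728 and 747 CPM in shControl. The knockdown libraries lay within 3 CPM of each other and far below every control. Its log2 change was -1.99 (SE 0.04, adjusted p = 2.63e-21), so that 25.2% of the control level remained, and it stayed between -2.01 and -1.97 over 18 alternative analyses. ITGA6, which pairs with ITGB1 or ITGB4 to bind laminin, stood at 138, 147 and 136 CPM in shACSL5 and at 298, 309 and 292 CPM in shControl. That is a log2 change of -1.10 (SE 0.04, adjusted p = 4.75e-17), and 5.37% of its exons overlap genes on the opposite strand, whose reads cannot be told apart here. ITGB4 (chromosome 17, 75721328 to 75757818, plus strand), whose long cytoplasmic tail anchors hemidesmosomes to keratin filaments, stood at 50.7, 42.7 and 50.7 CPM in shACSL5 against 119, 129 and 134 CPM in shControl. The groups were far apart, with a log2 change of -1.40 (SE 0.06, adjusted p = 1.3e-14). ITGB1 (chromosome 10, 32900319 to 33005792, minus strand), the shared partner of ITGA3 and ITGA6, moved much less: 998, 1014 and 954 CPM in shACSL5 against 1274, 1285 and 1233 CPM in shControl. It fell by 0.35 on the log2 scale (SE 0.03, adjusted p = 1.22e-10), leaving 78.2%, and 8.87% of its 50-base sequences also occur in other genes, mainly AC022149.1.

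Collagen receptors fell as well. ITGA2, the alpha subunit through which epithelial cells and platelets bind collagen, stood at 293, 323 and 281 CPM in shACSL5 and at 429, 410 and 393 CPM in shControl, a log2 change of -0.46 (SE 0.04, adjusted p = 5.06e-09). ITGA1, which prefers basement membrane collagen, stood at 14.8, 13.2 and 15.8 CPM in shACSL5 against 34.0, 33.2 and 34.6 CPM in shControl. This was a log2 change of -1.22 (SE 0.08, adjusted p = 2.56e-12), with 5.63% of its exons shared with genes on the same strand, PELO among them. ITGA10, a collagen receptor of cartilage, had 35, 35 and 32 counts in shACSL5 and 94, 49 and 96 in shControl. Its control libraries scattered, but all lay above the knockdown (log2 -1.29, SE 0.28, adjusted p = 0.000352).

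Receptors that recognise the arginine-glycine-aspartate motif of fibronectin and vitronectin fell together. ITGAV, an alpha subunit with several beta partners, stood at 62.1, 62.7 and 56.0 CPM in shACSL5 against 156, 149 and 144 CPM in shControl. The groups did not come near each other, and the log2 change was -1.31 (SE 0.05, adjusted p = 1.92e-15). ITGA5, the classical fibronectin receptor, stood at 50.3, 52.0 and 50.9 CPM in shACSL5 and 84.2, 90.7 and 94.3 CPM in shControl (log2 -0.82, SE 0.05, adjusted p = 1.82e-12). Of the beta partners of ITGAV, ITGB3 stood at 5.82, 3.61 and 5.22 CPM in shACSL5 and 16.6, 17.8 and 17.2 CPM in shControl. ITGB3 is a vitronectin receptor subunit; its log2 change was -1.80 (SE 0.15, adjusted p = 4.65e-10). The value for ITGB3 is uncertain because 51.6% of its exon bases belong also to AC068234.1 on the same strand, and the counting could have split or dropped those reads. ITGB5, another vitronectin receptor subunit, stood at 79.7, 80.5 and 83.3 CPM in shACSL5 and 132, 127 and 120 CPM in shControl (log2 -0.64, SE 0.05, adjusted p = 9.42e-11). ITGB8, which helps to activate latent TGF-beta, had 14, 19 and 35 counts in shACSL5 and 57, 38 and 59 in shControl, and was called at a log2 change of -1.23 (SE 0.36, adjusted p = 0.00493). Both subunits best known from leukocytes missed the call. ITGAE, an E-cadherin receptor of lymphocytes, was at -0.09 (SE 0.10, adjusted p = 0.454, 7.59% of its exons overlapped by opposite genes including HASPIN), and ITGB2 was at -0.06 (SE 0.18, adjusted p = 0.787).

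**Figure D2:**
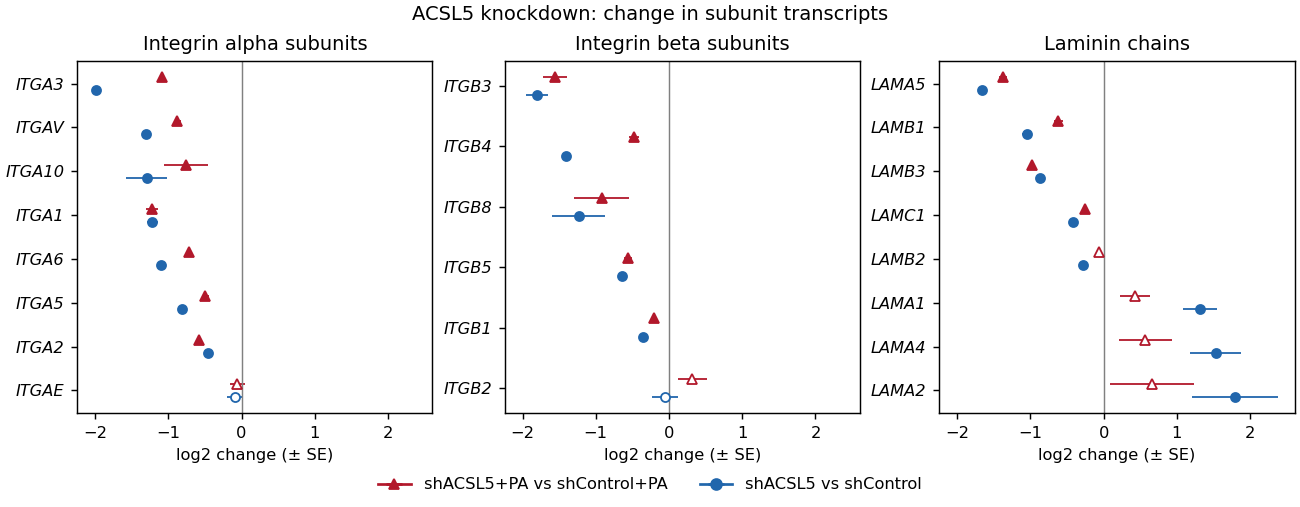
Log2 change with its SE for tested subunits with the ACSL5 knockdown, with palmitic acid (triangles, shACSL5+PA over shControl+PA) and without (circles, shACSL5 over shControl); filled symbols were called at adjusted p under 0.05. Without palmitic acid all tested integrin subunits but ITGAE and ITGB2 were called lower, and LAMA1, LAMA4 and LAMA2 were the members called higher.

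Laminin chains moved in both directions. LAMA5 (ENSG00000130702, chromosome 20, 62307955 to 62367312, minus strand), the most widely expressed laminin alpha chain, stood at 135, 119 and 139 CPM in shACSL5 against 405, 414 and 422 CPM in shControl. Every knockdown library lay far below the controls, and the log2 change was -1.66 (SE 0.05, adjusted p = 1.27e-17). Of the chains that assemble with it, LAMB1 stood at 36.2, 38.5 and 40.6 CPM in shACSL5 and 82.0, 81.1 and 75.8 CPM in shControl, a log2 change of -1.05 (SE 0.06, adjusted p = 8.43e-13). LAMC1, the gamma chain of most laminins, fell by 0.42 on the log2 scale (SE 0.03, adjusted p = 2.7e-10), to 181, 186 and 185 CPM in shACSL5 against 238, 249 and 250 CPM in shControl. LAMB2, the beta chain of synapses and kidney filters, fell least: 357, 343 and 386 CPM in shACSL5 against 432, 443 and 446 CPM in shControl (log2 -0.28, SE 0.04, adjusted p = 6.84e-07). LAMB3, of epithelial attachment sites, fell too. It stood at 356, 341 and 365 CPM in shACSL5 and 634, 657 and 658 CPM in shControl (log2 -0.88, SE 0.04, adjusted p = 4.22e-15).

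Low-level alpha chains moved the other way. LAMA1, the chain of embryonic basement membranes, had 77, 66 and 85 counts in shACSL5 and 25, 41 and 21 in shControl. LAMA4, a chain of blood vessel walls, had 49, 32 and 45 counts in shACSL5 and 17, 10 and 14 in shControl. LAMA2, the chain of muscle basement membrane, had 32, 32 and 25 counts in shACSL5 and 19, 0 and 5 in shControl. For each of these genes all 3 knockdown libraries lay above all 3 controls. The log2 changes were 1.32 for LAMA1 (SE 0.24, adjusted p = 4.35e-05), 1.53 for LAMA4 (SE 0.35, adjusted p = 0.000597) and 1.80 for LAMA2 (SE 0.59, adjusted p = 0.0108). The LAMA2 value rests on single control libraries: it was 3.47 without shControl replicate 1, and its call was lost without shControl replicate 3 (1.53, adjusted p = 0.0525). The exons of LAMA1 are overlapped over 11.1% by genes on the opposite strand. Even so LAMA5 made up 93.8% ± 0.501 of the summed laminin alpha level per length in shACSL5 and 99.2% ± 0.272 in shControl.

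**Figure D3:**
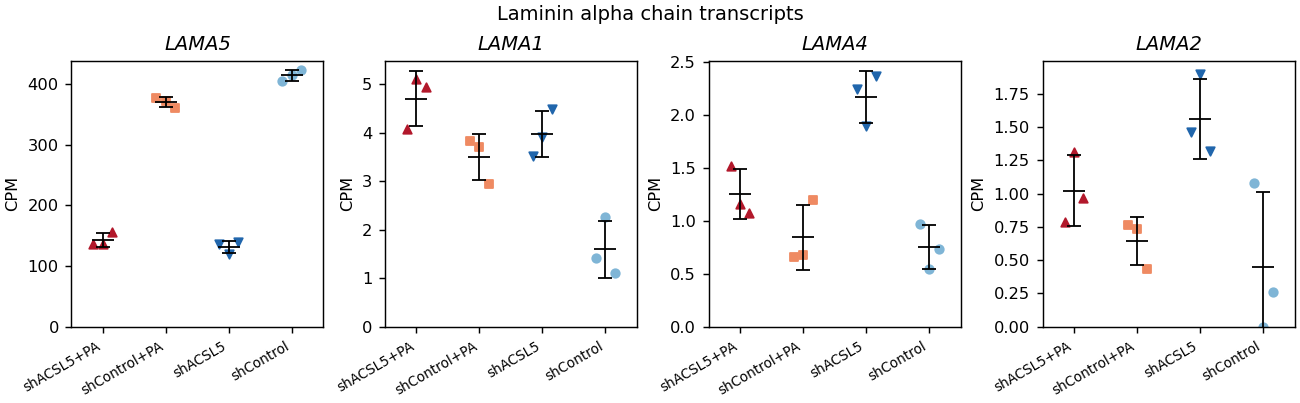
CPM of laminin alpha chain genes in each library (points) with the mean and SD (bars), in shACSL5+PA, shControl+PA, shACSL5 and shControl, each panel with its own axis from 0. LAMA5 lies at 119 to 156 CPM in knockdown libraries and 361 to 422 CPM in control libraries, while LAMA1, LAMA4 and LAMA2 stay under 6 CPM and are higher in shACSL5 than in shControl.

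Upstream sequences were available from RefSeq (GRCh38.p14) for 17 of the 23 tested genes, some with several start sites, 24 entries in all. In the 250 bases before the start, the letters GGGCGG (a GC box, either strand) occurred in 14 of these 24 entries and in 42.64% of all 35116 entries. Several entries of a gene each count here, and 11 of the 17 genes had a match in an entry. TGACTCA, the AP-1 site, occurred in 1 of the 24 and in 4.2% of all, and TATAAA in 2 of the 24 and in 10.72% of all. A match in these windows is a description of the letters and not of a bound factor. Shown are the windows of the alpha and beta chain genes that fell with the knockdown by at least 2-fold (LAMA5 and LAMB1). With them are the windows of LAMB3, called higher with palmitic acid in control cells as LAMA1 was, and of the laminin receptor ITGA6. Each runs 5′ to 3′ on the gene's strand, with GGGCGG or TGACTCA of either strand in capitals; for LAMB3 and ITGA6 the start with the most matches was taken, a choice made after the matches were seen.
LAMA5, chr20:62367313-62367562, minus strand: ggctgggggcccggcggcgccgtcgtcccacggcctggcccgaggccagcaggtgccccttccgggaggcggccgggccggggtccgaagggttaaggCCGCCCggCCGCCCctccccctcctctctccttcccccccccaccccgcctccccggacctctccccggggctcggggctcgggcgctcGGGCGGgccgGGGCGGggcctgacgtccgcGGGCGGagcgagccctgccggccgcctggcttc
LAMB1, chr7:108003162-108003411, minus strand: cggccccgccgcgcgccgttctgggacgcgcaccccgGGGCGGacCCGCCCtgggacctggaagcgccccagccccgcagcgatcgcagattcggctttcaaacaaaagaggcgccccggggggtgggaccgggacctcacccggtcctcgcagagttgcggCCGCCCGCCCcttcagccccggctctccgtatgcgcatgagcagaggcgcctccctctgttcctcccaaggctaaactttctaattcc
LAMB3, chr1:209651375-209651624, minus strand: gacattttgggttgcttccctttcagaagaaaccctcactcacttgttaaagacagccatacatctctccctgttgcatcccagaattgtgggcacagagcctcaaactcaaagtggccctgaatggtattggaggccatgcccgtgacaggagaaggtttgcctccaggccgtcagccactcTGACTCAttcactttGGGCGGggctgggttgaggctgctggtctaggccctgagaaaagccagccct
ITGA6, chr2:172427336-172427585, plus strand: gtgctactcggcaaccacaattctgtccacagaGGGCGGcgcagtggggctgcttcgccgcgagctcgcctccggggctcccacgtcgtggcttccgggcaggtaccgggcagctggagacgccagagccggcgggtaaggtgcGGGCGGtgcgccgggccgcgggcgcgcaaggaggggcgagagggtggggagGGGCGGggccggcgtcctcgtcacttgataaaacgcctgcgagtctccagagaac
LAMA5 holds 5 matches to the GC box, LAMB1 4 with a pair that overlaps, ITGA6 3 and LAMB3 1, next to the only AP-1 match among the 24 entries.

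The knockdown was compared again under palmitic acid. The subunits that were lower without it were mostly lower with it, and by less in many cases. Together the 38 genes took 0.318% ± 0.00155 of all counts in shACSL5+PA and 0.472% ± 0.00678 in shControl+PA. Of the 23 tested genes 17 fell and 0 rose, against 26.1% and 24.4% of all genes tested. At an unadjusted p under 0.05, 0 rose in edgeR too, and DESeq2 also called 0 higher. The median log2 change was -0.58, against -0.0029 over all genes. The groups did not overlap for 16 lower and 2 higher genes (29.5% and 27.4% of all genes), and 4 genes fell at least 2-fold (2.86% of all). ITGB3 had the lowest log2 change, at 2.60, 4.09 and 4.08 CPM in shACSL5+PA against 10.9, 10.7 and 9.97 CPM in shControl+PA (log2 -1.56, SE 0.16, adjusted p = 3.85e-08). Its value is uncertain here too, because of the exon bases shared with AC068234.1. LAMA5 followed, at 136, 136 and 156 CPM in shACSL5+PA against 377, 371 and 361 CPM in shControl+PA, a log2 change of -1.37 (SE 0.05, adjusted p = 9.69e-16). ITGA1 stood at 12.2, 12.3 and 12.5 CPM in shACSL5+PA and 29.3, 29.1 and 28.2 CPM in shControl+PA (log2 -1.22, SE 0.08, adjusted p = 1.27e-11). ITGA3 stood at 279, 283 and 299 CPM in shACSL5+PA and 625, 616.5 and 575 CPM in shControl+PA (log2 -1.08, SE 0.03, adjusted p = 1.7e-16). Of the abundant subunits, LAMB3 was at -0.98 (SE 0.04), ITGA2 at -0.58 (SE 0.04) and ITGB1 at -0.20 (SE 0.03), all called. LAMB2 was not called in this pair (-0.06, SE 0.04, adjusted p = 0.184; without shACSL5+PA replicate 3 it was, at -0.10 and 0.0390). LAMA1 (0.43, SE 0.21, adjusted p = 0.0973), LAMA4 (0.57, SE 0.36, adjusted p = 0.200) and LAMA2 (0.66, SE 0.58, adjusted p = 0.362) were not called either. The calls of 2 subunits with few counts were not stable. ITGB8 (-0.92, adjusted p = 0.0471) lost its call in 7 of 12 fits that each left out 1 library (shACSL5 replicate 2, shControl replicates 1 and 3, shACSL5+PA replicates 1 and 2, shControl+PA replicates 2 and 3; adjusted p up to 0.22), and ITGA10 (-0.76, adjusted p = 0.0420) in 4 (shACSL5+PA replicates 1 and 3, shControl+PA replicates 1 and 2; up to 0.181).

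Palmitic acid in control cells, the response with ACSL5 present, lowered part of the family. Of the 23 tested genes 13 fell and 2 rose, where 13.5% of all genes fell and 15.1% rose. Scaling by library sizes alone gave the same counts of subunits, but moved the higher share of all called genes to 35.9%, against 52.8% with TMM. The groups did not overlap for 13 lower and 3 higher genes (20.8% and 21.1% of all genes), and 1 gene fell at least 2-fold (1.07% of all). That was ITGB4, which stood at 50.1, 56.1 and 50.3 CPM in shControl+PA against 119, 129 and 134 CPM in shControl. No library of one group came near the other, and 41.0% of the untreated level remained (log2 -1.29, SE 0.06, adjusted p = 7.63e-13). LAMB1 stood at 50.1, 54.0 and 51.5 CPM in shControl+PA and 82.0, 81.1 and 75.8 CPM in shControl (log2 -0.62, SE 0.06, adjusted p = 5.38e-08). ITGB2 stood at 3.33, 3.37 and 2.62 CPM in shControl+PA and 5.47, 6.59 and 5.32 CPM in shControl (log2 -0.90, SE 0.19, adjusted p = 0.000949), and ITGB3 fell by 0.71 on the log2 scale (SE 0.14, adjusted p = 0.000503). The partner of ITGB4, ITGA6, fell by 0.39 (SE 0.03, adjusted p = 1.98e-08) and ITGA3 by 0.26 (SE 0.03, adjusted p = 4.05e-06). Both genes that rose were laminin chains: LAMB3, at 755, 750 and 730 CPM in shControl+PA against 634, 657 and 658 CPM in shControl (log2 0.20, SE 0.04, adjusted p = 0.000245), and LAMA1, with 70, 66 and 54 counts against 25, 41 and 21 (log2 1.13, SE 0.24, adjusted p = 0.00104). ITGB1 (0.03, SE 0.03), ITGA2 (0.01, SE 0.04), ITGAV (0.01, SE 0.05) and ITGB5 (0.03, SE 0.05) were not called. Among the 13 that fell, single libraries decided 4 calls: LAMA5 (-0.16, and adjusted p = 0.0508 without shControl+PA replicate 3), ITGA5 (-0.18, and 0.0597 without shControl replicate 3), ITGA1 (-0.23, and 0.0578 and 0.0584 without replicate 3 of shControl or of shControl+PA) and ITGA10 (-0.92, and 0.0556 to 0.0785 without shControl replicate 1 or 3 or shControl+PA replicate 3), while LAMA2 (0.54, adjusted p = 0.584) was at 2.21 (adjusted p = 0.0337) without shControl replicate 1.

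In knockdown cells palmitic acid had calls in both directions. Of the 23 tested genes 4 rose and 4 fell, against 12.1% and 9.78% of all genes; in a fit of only these groups 1 fell. The groups did not overlap for 5 higher and 6 lower genes (18.8% and 16.6% of all genes). At least 2-fold falls were called in 0 (0.456% of all genes; at an unadjusted p under 0.05, edgeR had 7 of any size lower, and DESeq2 called 3). ITGA3 rose most, to 279, 283 and 299 CPM in shACSL5+PA against 184, 181 and 184 CPM in shACSL5. The treated libraries all lay above the untreated ones, by 0.65 on the log2 scale (SE 0.04, adjusted p = 1.53e-11). ITGAV stood at 78.4, 88.0 and 79.8 CPM in shACSL5+PA and 62.1, 62.7 and 56.0 CPM in shACSL5 (log2 0.45, SE 0.05, adjusted p = 3.36e-06). ITGB1, their common partner, stood at 1140, 1146 and 1075 CPM in shACSL5+PA and 998, 1014 and 954 CPM in shACSL5 (log2 0.18, SE 0.03, adjusted p = 5.04e-05). ITGB4 fell, to 35.5, 39.2 and 37.8 CPM in shACSL5+PA against 50.7, 42.7 and 50.7 CPM in shACSL5 (log2 -0.36, SE 0.07, adjusted p = 0.000611). ITGA6 was at -0.01 (SE 0.04, adjusted p = 0.843). The other 4 calls sat at the threshold, and each was lost when single libraries were left out: ITGA5 (0.14, adjusted p = 0.0454) in 8 of 12 such fits, all but those without shControl replicate 1 or 3 or shControl+PA replicate 2 or 3, ITGA1 (-0.24, 0.0425) in 11, all but that without shACSL5 replicate 2, LAMB1 (-0.19, 0.0443) in 9, all but those without shACSL5 replicate 1, shControl replicate 3 or shACSL5+PA replicate 2, and ITGB2 (-0.52, 0.0453) in 5, those without shACSL5 replicate 1 or 3, shACSL5+PA replicate 2 or 3 or shControl+PA replicate 1, with adjusted p values of 0.050 to 0.212. Uncalled genes gained a call in the same way: LAMA5 (0.16, adjusted p = 0.0487) and ITGA2 (-0.16, 0.0224) without shACSL5 replicate 3, LAMB3 (0.12, 0.0396) without shACSL5+PA replicate 1, and ITGB3 without shACSL5 replicate 2 (-0.63, 0.0121) or shACSL5+PA replicate 3 (-0.56, 0.0478).

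**Figure D4:**
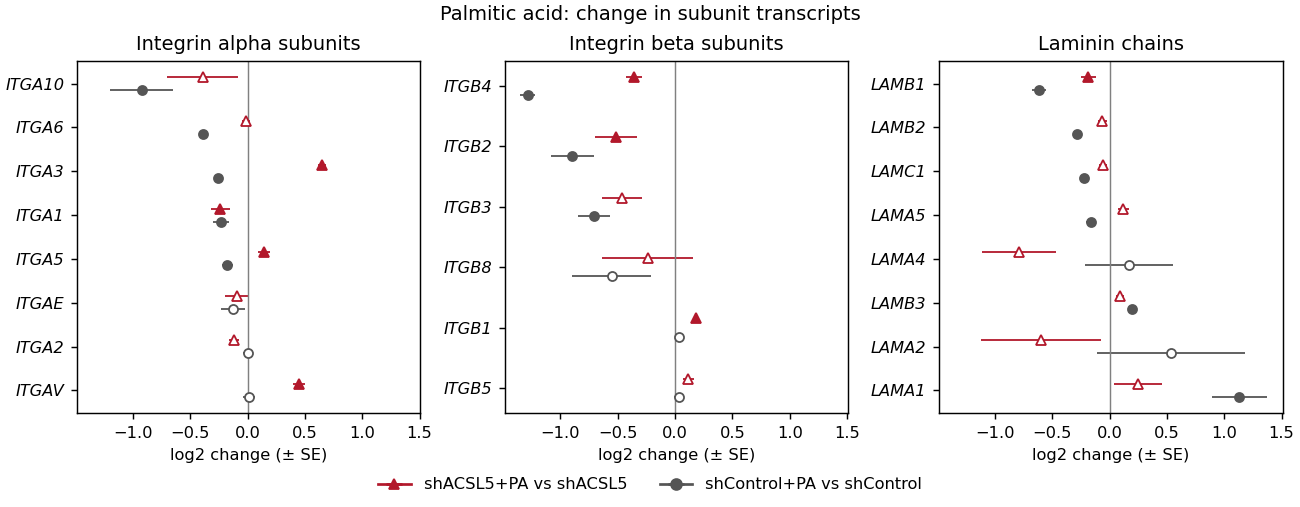
Log2 change with its SE for tested subunits with palmitic acid, in knockdown cells (triangles, shACSL5+PA over shACSL5) and in control cells (circles, shControl+PA over shControl); filled symbols were called at adjusted p under 0.05. ITGB4 lies far to the left in control cells, at -1.29, and nearer the line in knockdown cells, at -0.36, while ITGA3 lies on opposite sides, at 0.65 in knockdown and -0.26 in control cells.

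The interaction tests whether the palmitic acid response in knockdown cells differed from that in control cells, which is the same number as the difference of both knockdown changes. It was positive and called in 11 of the 23 tested genes and negative and called in 0, against 7.15% and 7.39% of all genes. With library sizes alone these subunit counts were the same, and the positive share of all called genes was 59.9%, against 49.2% with TMM. DESeq2 also called 0 negative, and at an unadjusted p under 0.05 edgeR had 1 (LAMA1). These comparisons share libraries, so their values for a gene are not independent of each other. ITGB4 had the largest value, 0.93 (SE 0.09, adjusted p = 6.97e-07), where palmitic acid lowered the gene in both backgrounds and by more in control cells. ITGA3 followed at 0.91 (SE 0.05, adjusted p = 3.49e-11), with a rise in knockdown cells and a fall in control cells. ITGAV (0.43, SE 0.07), LAMB1 (0.43, SE 0.09), ITGA6 (0.38, SE 0.05), ITGA5 (0.32, SE 0.07), LAMA5 (0.28, SE 0.07), LAMB2 (0.22, SE 0.05), LAMC1 (0.16, SE 0.05) and ITGB1 (0.15, SE 0.04) were called too. For all 11 the value in shACSL5+PA remained below that in shControl+PA on average, and the call of that difference was missed by LAMB2 alone. ITGA2 (-0.12, SE 0.06, adjusted p = 0.213), LAMB3 (-0.11, SE 0.05, adjusted p = 0.183), ITGB5 (0.08, SE 0.07, adjusted p = 0.482) and ITGA1 (-0.01, SE 0.11, adjusted p = 0.983) were not called. LAMC1 (adjusted p = 0.0234) lost its call in 6 of 12 fits that left out 1 library (shACSL5 replicate 1, shControl replicates 2 and 3, shACSL5+PA replicate 2, shControl+PA replicates 1 and 2; up to 0.0691). Negative calls appeared for LAMA1 without shControl replicate 2 (-1.22, adjusted p = 0.0152), LAMA2 without shControl replicate 1 (-2.81, 0.0358) and LAMB3 without shACSL5+PA replicate 3 (-0.16, 0.0122), against -0.89 (0.0652), -1.14 (0.407) and -0.11 with all libraries.

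**Figure D5:**
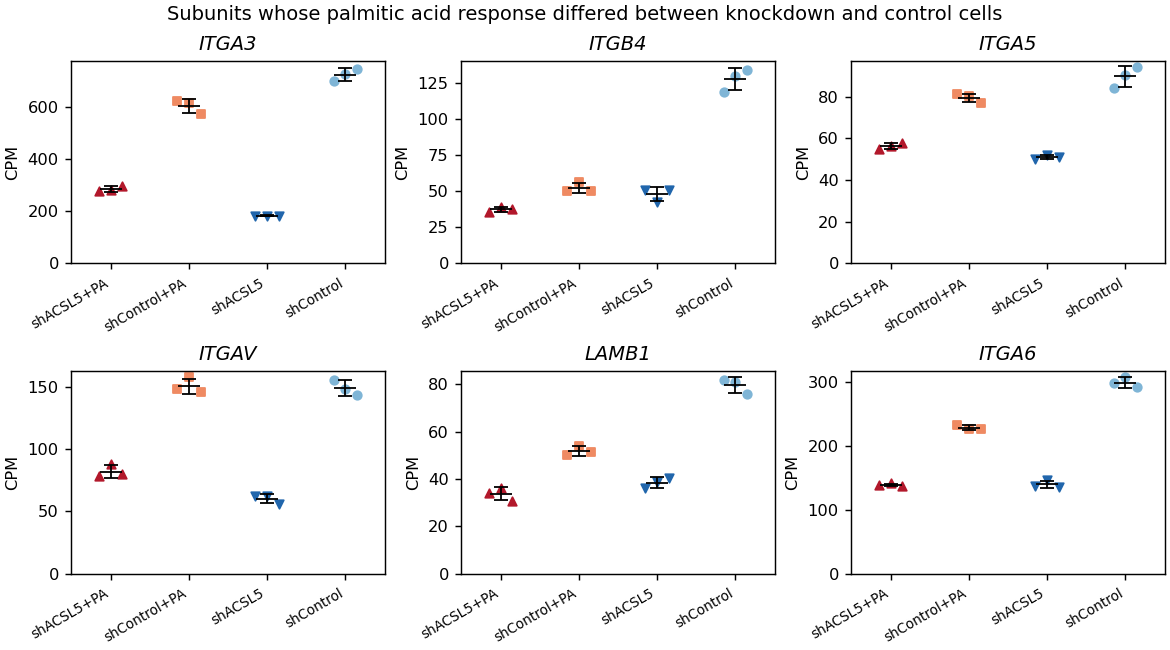
CPM in each library (points) with the mean and SD (bars) for 6 of the 11 genes with a called interaction, in shACSL5+PA, shControl+PA, shACSL5 and shControl, each panel with its own axis from 0. The gap between knockdown and control is narrower with palmitic acid in each panel. The shControl libraries lie above all others in every panel but that of ITGAV.

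Because the subunits moved by different amounts, the make-up of the family differed between groups. The summed level per length of the alpha subunits that pair with ITGB1 was 0.557 ± 0.0141 of that of ITGB1 in shACSL5+PA and 0.837 ± 0.0222 in shControl+PA. Without palmitic acid it was 0.566 ± 0.0111 in shACSL5 and 0.973 ± 0.0164 in shControl. The knockdown groups did not overlap with the controls. ITGA6 was at 1.15 ± 0.0533 times the level per length of ITGA3 in shACSL5 and at 0.621 ± 0.0296 times in shControl, and the groups did not overlap. The ratio itself depends on the lengths used, but the shift between groups does not. In shACSL5+PA the ratio was 0.728 ± 0.0346 and in shControl+PA 0.568 ± 0.0210. The LAMA5 level per length was 0.419 ± 0.0365 of that of LAMC1 in shACSL5 and 0.990 ± 0.0124 in shControl.

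Genes that act with integrins were counted from lists chosen with earlier results of these data known. In the knockdown without palmitic acid these counts stand beside 29.7% of all genes called higher and 32.6% called lower. Of 34 tested focal adhesion adaptors and kinases, 14 rose and 14 fell with the knockdown without palmitic acid, and their median log2 change was -0.06. FERMT2, the kindlin that activates integrins at their beta tails, fell by 1.09 (SE 0.05), and VCL, the linker vinculin, by 0.41 (SE 0.03). The docking protein gene NEDD9 rose by 2.14 (SE 0.14) and GIT1 by 0.60 (SE 0.04). Of 13 membrane partners, 4 rose and 5 fell (median -0.01). The tetraspanin CD82 was at -2.50 (SE 0.10), IGSF8 at -1.39 (SE 0.09), CD151, the tetraspanin that binds laminin receptors most tightly, at -0.52 (SE 0.04) and CD9 at -0.48 (SE 0.04), all called. Among those that rose were SLC3A2 (0.29, SE 0.03) and the tetraspanin gene TSPAN4 (0.29, SE 0.05), named after their values were seen as the 2 with the smallest p. Of 14 other laminin receptors and hemidesmosome genes 3 rose and 9 fell (median -0.32). They include PLEC, the plectin that links ITGB4 to keratins (-0.51, SE 0.03), LGALS3 (-1.12, SE 0.06) and the laminin-binding netrin NTN4 (-1.30, SE 0.06). RPSA, a ribosomal protein also described as a laminin receptor, rose by 0.42 (SE 0.02). SDC1, named after its value was seen, rose by 0.49 (SE 0.05). Of 23 tested integrin ligands other than laminins 7 rose and 11 fell (median -0.39), with CCN2 at -0.69 (SE 0.03), TNC at -1.44 (SE 0.04), TGFBI at -1.44 (SE 0.06) and COL6A2 at -1.26 (SE 0.04). CCN1 (0.25, SE 0.02) and MFGE8 (0.51, SE 0.06), picked in the same way, were among those that rose.

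Under palmitic acid the knockdown moved 14 focal adhesion genes up and 10 down, 0 membrane partners up and 7 down, 3 other laminin receptors up and 7 down, and 8 other ligands up and 10 down, where 24.4% of all genes rose and 26.1% fell. CD82 (-1.42, SE 0.10) and FERMT2 (-0.85, SE 0.05) were again among the lower genes, and CCN1, a matrix ligand of ITGAV, was higher (0.55, SE 0.02). Palmitic acid in control cells lowered 12 focal adhesion genes and raised 4, lowered 13 ligands and raised 1, lowered 8 other laminin receptors and raised 2, and lowered 4 membrane partners and raised 3, where 13.5% of all genes fell and 15.1% rose. CD82 fell by 0.89 (SE 0.08) there, and SLC3A2, the amino acid transporter subunit that binds beta tails, rose by 0.68 (SE 0.03). In knockdown cells it raised 6 ligands and lowered 5, raised 2 focal adhesion genes and lowered 7, raised 4 membrane partners and lowered 1, and raised 2 other laminin receptors and lowered 4, where 12.1% of all genes rose and 9.78% fell. CAV1, caveolin, fell by 0.50 (SE 0.03). The interaction was positive in 11 of 23 ligands and negative in 0, positive in 4 and negative in 4 focal adhesion genes, positive in 2 and negative in 3 membrane partners, and positive in 6 and negative in 2 other laminin receptors, where 7.15% of all genes were positive and 7.39% negative. CD82 (1.09, SE 0.14), IGSF8 (0.83, SE 0.12), TNC (0.63, SE 0.06), TGFBI (0.58, SE 0.08), LGALS3 (0.53, SE 0.08) and COL17A1, a hemidesmosome collagen (0.71, SE 0.20), had positive values. Negative values were called for the focal adhesion genes TNS2 (-0.42, SE 0.08), ZYX (-0.31, SE 0.06) and ACTN1 (-0.25, SE 0.05). The same held for SLC3A2 (-0.39, SE 0.05), CAV1 (-0.16, SE 0.04), RPSA (-0.17, SE 0.03) and CD44 (-0.17, SE 0.04).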

How the data were processed

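Polyadenylated RNA of 12 libraries was sequenced, and the deposited table holds the authors' counts of reads per gene without normalization. The tools named by the submitters' processing notes are fastp 0.22.0, HISAT2 2.1.0 and featureCounts, with the GRCh38 build. Annotation release and strand setting: not given in the sources used here; sense and antisense reads may therefore be mixed. Groups and replicate numbers came from the sample titles. Of 57730 genes, filterByExpr of edgeR 4.0.16 (R 4.3.3, minimum count 10) kept 14706, over which p-values were adjusted (Benjamini-Hochberg). Counts were scaled with TMM factors, and 1 quasi-likelihood model with a mean per group was fitted to all 12 libraries; 5 contrasts were tested. Every adjusted p comes from this test unless DESeq2 1.42.0 is named. The SE was taken as the size of the log2 change over the root of F. RPKM used summed exon lengths of GENCODE 29, which also gave coordinates and overlaps; promoters came from RefSeq. Replicate pairs of a group differed by more than counting noise (chi-square per degree of freedom 2.24 to 4.36 over genes), so no library was counted as a duplicate. The model was tested on simulated data. Alternatives were RLE factors, library sizes alone, no low-count filter, only the groups compared, a replicate block, DESeq2 and leaving out each library. Members and lists were chosen with earlier results of these data known. Members with a mean of at least 5 CPM or a call in any comparison could be given library by library, and up to 4 called genes with the smallest p were eligible per list and comparison. 1 tested laminin chain and 1 marker enter the counts, but their own values are not reported here. Counting limits cover counting error only.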

Additional observations from a re-analysis of the deposited data

Results flagged for a closer look

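The palmitic acid response differed between knockdown and control cells for the following subunits, among others, by the interaction test of the model. The values, the response in shACSL5 minus that in shControl on the log2 scale, were 0.91 for ITGA3, 0.32 for ITGA5, 0.38 for ITGA6, 0.43 for ITGAV, 0.15 for ITGB1, 0.93 for ITGB4, 0.28 for LAMA5, 0.43 for LAMB1, 0.22 for LAMB2 and 0.16 for LAMC1. ITGA3, ITGAV and ITGB1 were called higher with palmitic acid in knockdown cells in each of the 18 alternative analyses, and ITGB4 was called lower there in each. In control cells ITGA3 and ITGB4 were called lower in each, while ITGAV and ITGB1 were not called in any.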

How the results depend on the processing

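No called log2 change of a tested member turned its sign under any alternative, and the count of members called stayed within 1.5 times except in the following cases. In shACSL5+PA against shACSL5 the count of members lower was 1 in the fit with only the groups compared, in place of 4, and 1 to 4 when single libraries were left out, which removes residual degrees of freedom. Leaving out single libraries gave 2 to 3 members higher and 18 to 19 lower in shACSL5 against shControl, 15 to 17 lower in shACSL5+PA against shControl+PA, 2 to 3 higher and 10 to 13 lower in shControl+PA against shControl, 3 to 4 higher in shACSL5+PA against shACSL5, and 10 to 11 positive and 0 to 1 negative for the interaction. With no low-count filter 6 members were higher in shACSL5+PA against shACSL5. Library sizes alone gave 3 members higher and 5 lower there; DESeq2 gave 3 and 3, and 12 lower in shControl+PA against shControl. The labels do not say that replicate numbers mark a shared batch. Deviations from group means correlated at -0.09 to 0.19 between same-numbered libraries of different groups and at -0.17 to 0.18 between others. Of the 12 libraries, 9 correlated best with one of their own number. Some of these best pairs are mutual, so the 12 are not independent, and whether libraries were paired was not tested. The replicate block gave 18 members lower and 3 higher in shACSL5 against shControl, 17 lower under palmitic acid, 13 lower and 2 higher, 4 and 4, and 11 positive interactions, as without it; all genes called were 9197, 7489, 4302, 3363 and 2261. It ended the call of ITGB2 (-0.52, adjusted p = 0.0523) and gave one to ITGA2 (-0.12, 0.0222) in shACSL5+PA against shACSL5. With the longest transcript as length, the same 10 genes were highest in shControl, with the mean of ITGA6 then above that of ITGA2 (53.4 and 52.2 RPKM). Their ranges overlapped with that length (52.0 to 55.0 and 49.9 to 54.6), so their order rests on the length used. Depth limits LAMA2, LAMA4, ITGB8 and ITGA10, whose libraries held under 100 counts. It also limits LAMA1 (21 to 101 counts a library) and ITGB2 (48 to 132).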

Other observations

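Some genes below the low-count filter had calls when no filter was applied. ITGAX, an alpha subunit of myeloid cells, had 0 to 1 counts in shACSL5+PA against 1 to 7 in shControl+PA, and 0 to 1 counts in shACSL5 against 3 to 10 in shControl. Its unfiltered edgeR adjusted p was 0.0358 with palmitic acid and 0.0235 without. ITGA7, a laminin receptor subunit of muscle, had 1 to 2 counts in shACSL5 and 5 to 10 in shControl (unfiltered adjusted p = 0.0438). LAMB4 had 13 counts in shACSL5 replicate 3 and at most 3 in any other library. It was called lower in shACSL5+PA than in shACSL5 (unfiltered edgeR adjusted p = 0.0349). LAMC3 had no such call, with 1 to 4 counts in shACSL5 libraries and at most 1 in any other. No leukocyte marker passed the filter in these libraries.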
